A study of Mus musculus with 6 samples.

Results

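The genes described here are the protein-coding multicopy genes of the mouse SPEER family and of the related cluster on chromosome 14. They were chosen by name, position and summed count, as every protein-coding gene whose name starts with Speer, together with the predicted genes (names of the form Gm plus a number, or ending in Rik) that start between positions 9500000 and 16500000 of chromosome 5 or before position 7600000 of chromosome 14, on the mm10 build. Of the 54532 gene identifiers counted, 128 met these conditions, and the 102 with a summed count of at least 10 over the 6 libraries are the members. All 10 Speer genes and all 20 genes of the chromosome 5 region reached that minimum, against 72 of 98 in the chromosome 14 region; 5 of the 26 left out had a count of 0 in every library. The members just inside the minimum were Gm3173 with 10 counts and Gm3278 and Gm16434 with 14 each, and just outside it were Gm3264, Gm3373 and Gm8050 with 8 each. The members were selected on their summed read count, so the presence of the members in testis RNA is not a finding; the selection did not use the genotype.

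The libraries are 3 labelled KO for 1700052I22Rik, a long non-coding RNA gene, and 3 labelled WT, all made from mouse testis RNA. The study asked what this RNA does in spermatogenesis. The age and strain of the mice, and how the allele was made, were not given in the sources used here. The labels do not tie the 3 libraries of a group to different mice, and every p-value below refers to the spread among the libraries alone, which may be technical.

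SPEER proteins are glutamate-rich proteins of spermatids, the haploid cells that follow meiosis, and the genes are known in mouse as a rapidly duplicated family. The takusan genes of chromosome 14 are known as a second multicopy family, and both are thought to descend from part of Dlg5, a gene for a scaffold protein at cell contacts. Families of this kind arise by repeated copying of a genomic segment, so that neighbouring genes can share nearly all of their sequence. The groups called the chromosome 5 and chromosome 14 regions hold only genes with Gm or Rik names, because the selection was made so. Speer1, Speer3, Speer4c, Speer4d and Speer4e also start inside the chromosome 5 window, but are grouped with the Speer genes. The Speer genes and the chromosome 5 region are therefore not separate loci, and no function is assigned to single copies here.

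The likeness of the copies is visible in the first bases of the coding sequences, which are shown because it bears on every count below. The stretches are the first 60 coding bases of GENCODE M21 transcripts of 5 chromosome 14 genes, 5′ to 3′, and capitals mark bases that differ from Gm21103. Gm21103 and Gm3460 have no difference here, Gm5797 and Gm10340 have 2 each, and Gm9602 has 3.
Gm21103: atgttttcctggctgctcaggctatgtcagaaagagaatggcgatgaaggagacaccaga
Gm3460: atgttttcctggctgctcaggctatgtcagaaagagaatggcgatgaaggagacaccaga
Gm5797: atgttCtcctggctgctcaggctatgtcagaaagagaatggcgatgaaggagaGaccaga
Gm10340: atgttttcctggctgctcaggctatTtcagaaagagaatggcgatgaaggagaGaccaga
Gm9602: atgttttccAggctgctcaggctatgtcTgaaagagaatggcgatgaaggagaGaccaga

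The SPEER side was compared over a stretch of 60 bases of the annotated coding sequences, starting at base 38 of Speer2, with capitals for bases that differ from Speer2. Speer3 differs from it at 3 bases, 4933402N22Rik and Gm5152, chromosome 5 genes with no Speer name, at 3 each, and Speer4c at 6. 4933402N22Rik and Gm5152 are identical over this stretch.
Speer2: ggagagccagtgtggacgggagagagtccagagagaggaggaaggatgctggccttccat
Speer3: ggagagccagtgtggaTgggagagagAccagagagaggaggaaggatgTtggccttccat
4933402N22Rik: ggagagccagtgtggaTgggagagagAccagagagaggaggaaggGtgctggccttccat
Gm5152: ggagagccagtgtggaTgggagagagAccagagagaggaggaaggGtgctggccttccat
Speer4c: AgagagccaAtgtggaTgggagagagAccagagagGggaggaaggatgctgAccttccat

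Over whole coding sequences, the closest other member was 99.4% identical at the median of the 102 members, and 94 members had a partner at 98% or more. Every gene of the chromosome 5 region was 97.2% to 100% identical to a named Speer gene. The nearest was Speer1 for 13 of them and a Speer4 gene for 7. The chromosome 14 genes were 63.2% to 68.4% identical to their closest Speer gene, where the sequences could be aligned. Positions opposite a gap were not counted, and the identity that unrelated sequences reach with this scoring was not tested. Among themselves they fell into 28 genes at 94.6% to 99.4% identity to Gm21103 and 41 genes at 87.4% to 92.4%, divided at 94%, a value chosen after the identities were seen. The other 3, Gm2916, Gm10251 and Gm3618, have an annotated coding sequence of 381 bases. It could not be aligned to Gm21103 over enough of its length, which goes against counting them with the rest of the cluster. They stay in the values given below for the chromosome 14 region.

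Some of the upstream sequences share features as well. RefSeq promoters (GRCm38.p6, 250 bases before to 50 after the start, 300 in all) were found within 100 bases of the deposited start for 51 of the 102 members. GTTGCCA, one arm of the palindromic site known to be bound by RFX factors, which act in ciliated and spermatogenic cells, was present on either strand in 29 of these 51 (56.9%), against 4.39% of 32544 RefSeq promoters of that length. By group, GTTGCCA was in 6 of 10 Speer promoters, 5 of 9 of the chromosome 5 region and 18 of 32 of the chromosome 14 region. In the Speer and chromosome 5 groups every match was in a Speer4 gene or a gene nearest to one. Speer1, Speer2, Speer3, 4933402N22Rik, Gm5861 and Gm6460 had none in their windows, nor had Speer4f1 and Gm21190. The TATA letters TATAAA were in 4 of 51 (7.84%) against 13.6% of all promoters. By group they were in 1 of 10 Speer promoters, 3 of 9 of the chromosome 5 region and 0 of 32 of the chromosome 14 region. These 4 were the promoters of Speer1, 4933402N22Rik, Gm5861 and Gm6460. The cAMP response element TGACGTCA was in none of 51, against 1.80%. The promoters are copies of each other, so their matches are not independent, and a match is not evidence of binding.

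Promoters are shown for 4 members that recur below, 5′ to 3′ on the gene's strand, with GTTGCCA in capitals. Speer4c (chr5:15714222-15714521, minus strand) and Gm10413 (chr14:3394843-3395142, plus strand) have 1 match each. Gm5797 (chr14:7332346-7332645, minus strand), which has the same base as Gm10413 at 290 of 300 positions without gaps, and 4933402N22Rik (chr5:11917793-11918092, plus strand) have none in this window. The window of 4933402N22Rik ends inside its coding stretch shown above, which starts at base 1 of its annotated coding sequence. In Speer4c that stretch starts at coding base 35. The bases ctattgtctcctggagagttctt, found in both windows, lie nearer the 5′ end in that of 4933402N22Rik. These windows therefore do not cover matching positions, and bases further upstream of 4933402N22Rik were not searched.
Speer4c: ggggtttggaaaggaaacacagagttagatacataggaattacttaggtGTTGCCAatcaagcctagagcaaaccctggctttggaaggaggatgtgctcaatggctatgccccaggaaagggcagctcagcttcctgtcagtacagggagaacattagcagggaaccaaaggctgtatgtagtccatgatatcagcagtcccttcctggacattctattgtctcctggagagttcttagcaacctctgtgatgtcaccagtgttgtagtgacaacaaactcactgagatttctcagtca
4933402N22Rik: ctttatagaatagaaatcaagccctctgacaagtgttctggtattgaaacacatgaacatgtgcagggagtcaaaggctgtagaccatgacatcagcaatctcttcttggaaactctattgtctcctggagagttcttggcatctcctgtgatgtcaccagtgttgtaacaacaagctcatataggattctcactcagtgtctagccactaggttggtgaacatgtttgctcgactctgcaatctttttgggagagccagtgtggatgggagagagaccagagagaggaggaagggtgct
Gm10413: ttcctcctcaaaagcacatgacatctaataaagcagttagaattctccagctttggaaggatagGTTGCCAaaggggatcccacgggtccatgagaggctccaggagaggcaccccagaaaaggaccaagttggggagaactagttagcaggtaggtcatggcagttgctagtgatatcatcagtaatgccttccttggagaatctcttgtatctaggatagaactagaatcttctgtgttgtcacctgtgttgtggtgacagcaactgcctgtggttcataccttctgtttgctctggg
Gm5797: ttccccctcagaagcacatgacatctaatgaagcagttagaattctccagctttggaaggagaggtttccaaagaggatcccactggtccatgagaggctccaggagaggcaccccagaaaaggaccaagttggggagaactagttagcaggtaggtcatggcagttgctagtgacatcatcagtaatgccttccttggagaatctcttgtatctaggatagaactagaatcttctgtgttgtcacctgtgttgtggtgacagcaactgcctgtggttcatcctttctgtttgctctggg

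Facts of the libraries bear on what follows. Library totals lay between 17635045 and 18117593 counts. 1700052I22Rik had 0 counts in each KO library, against 185, 175 and 218 in the WT libraries. Germ cell markers fixed for the testis were abundant in all libraries, with elongating spermatid genes (Prm1, Prm2, Tnp1 and others) summing to 14149 to 17491 CPM (counts per 1000000 counts, scaled by TMM) in KO and 14817 to 17132 CPM in WT libraries. KO 2 and WT 1 stood apart from the other 4 libraries on the first principal component of all tested genes, which held 26.6% of the variance, with scores of 30.2 and 22.8 against -17.5 to -6.98. The same libraries had the lowest sums of 7 Leydig cell markers, 295 CPM in KO 2 and 263 CPM in WT 1, against 486 to 921 CPM in the other 4. They also had the lowest sums of 8 epididymis markers, 170 CPM in KO 2 and 168 CPM in WT 1, against 234 to 364 CPM. The elongating spermatid sum was lowest in KO 2, at 14149 CPM, but not in WT 1, at 16059 CPM. In bulk tissue, fewer cells of a type and less RNA per cell cannot be told apart.

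The members together made up a small part of the testis RNA, and a few copies carried most of it. Their summed level was 329, 399.5 and 336 CPM in the KO libraries and 364, 307 and 304 CPM in the WT libraries, a mean share of 0.0340% of counts. Of 36494 counts over all members, Speer2, Gm21103 and Gm5152 held 29.8% and the 10 members with most held 55.1%. The median member had a summed count of 104; 12 members had at least 1000 and 50 had under 100.

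Levels per length put Speer2 on top. Speer2, on chromosome 16 apart from the clusters (chr16:69856874-69863744), averaged 36.8 CPM per kilobase, followed by Gm5152 at 28.5 and Gm21103 at 18.6. Speer1, at 13.5 CPM per kilobase, was the only other Speer gene above 3, and the 7 Speer4 genes and Speer3 lay between 0.444 (Speer4a) and 2.29 (Speer4f2). In the chromosome 5 region 4933402N22Rik (13.1 CPM per kilobase) and Gm8906 (8.55) followed Gm5152, and in the chromosome 14 region Gm10338 (11.1) and Gm10413 (10.6) followed Gm21103.

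**Figure D1:**
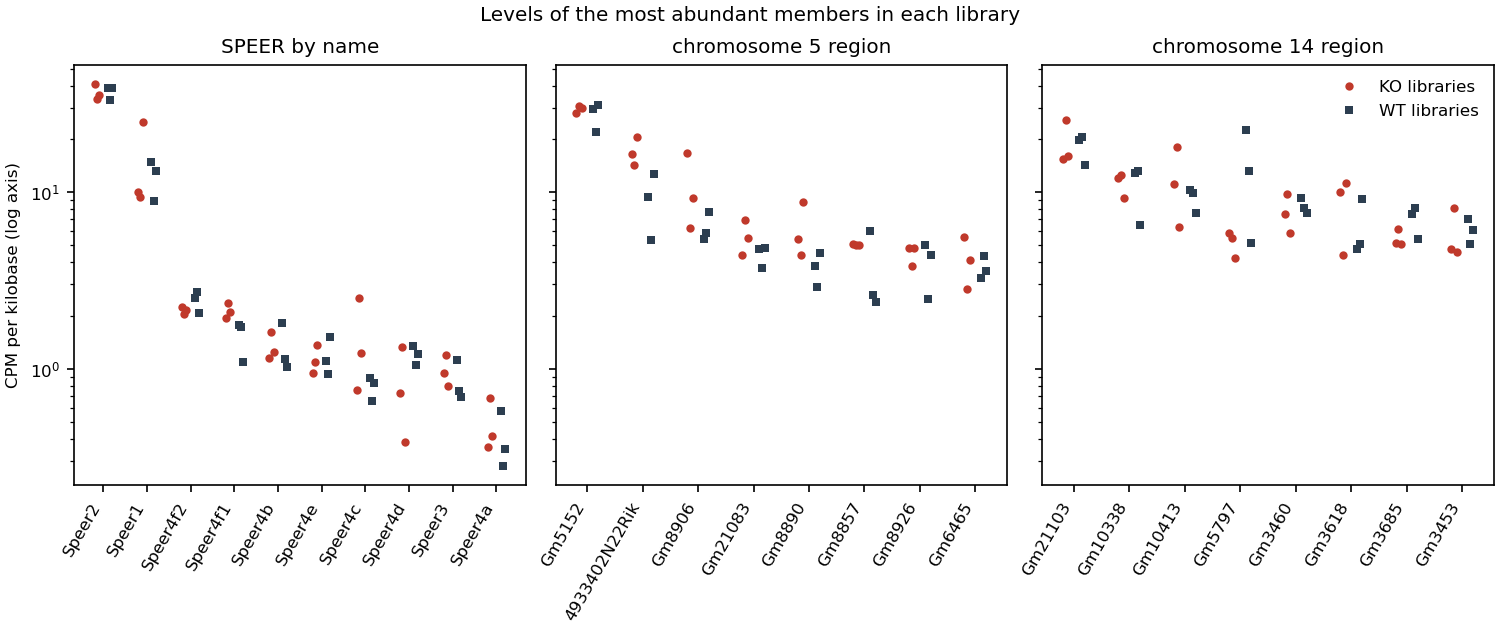
Level of each named Speer gene and of the 8 most abundant members of each region, in CPM per kilobase on a log axis; circles are the 3 KO libraries and squares the 3 WT libraries. Speer2, Gm5152 and Gm21103 are highest in their panels, and Gm5797 has its highest values in WT 1 and WT 2.

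The sequence division of the chromosome 14 cluster went with the median level, though the ranges of the types overlapped. The 28 genes most like Gm21103 held 15292 counts, with a median of 1.71 CPM per kilobase and a range of 0.0904 to 18.6. The 41 genes of the other type held 2062 counts, with a median of 0.229 and a range of 0.0631 to 0.612 CPM per kilobase. Genes of the region under the count minimum were not typed. This is a description of the deposited counts: the share of 50-base words of the transcripts found in no other annotated gene was 8.85% at the median of the first type and 13.0% of the second. A low share leaves few positions where a read of that length could be placed in 1 gene only, and the authors' treatment of reads that fit several genes was not given in the sources used here.

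Across all members the median share of unique 50-base words was 12.2%, and 93 of 102 had under 50%, against a median of 99.6% and 4.11% of genes under 50% among 17196 other protein-coding genes with a summed count of at least 10. The median was 51.5% for the Speer genes, 12.7% for the chromosome 5 region and 11.9% for the chromosome 14 region. Speer2 was the most distinct member, at 94.8%. The 26 genes below the count minimum had a median of 5.43%. With 100-base words the medians were 26.7% for the members and 100% for the other genes. Over the 128 genes Spearman's rho between unique share and summed count was 0.28, a description over genes that share sequence and libraries.

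**Figure D2:**
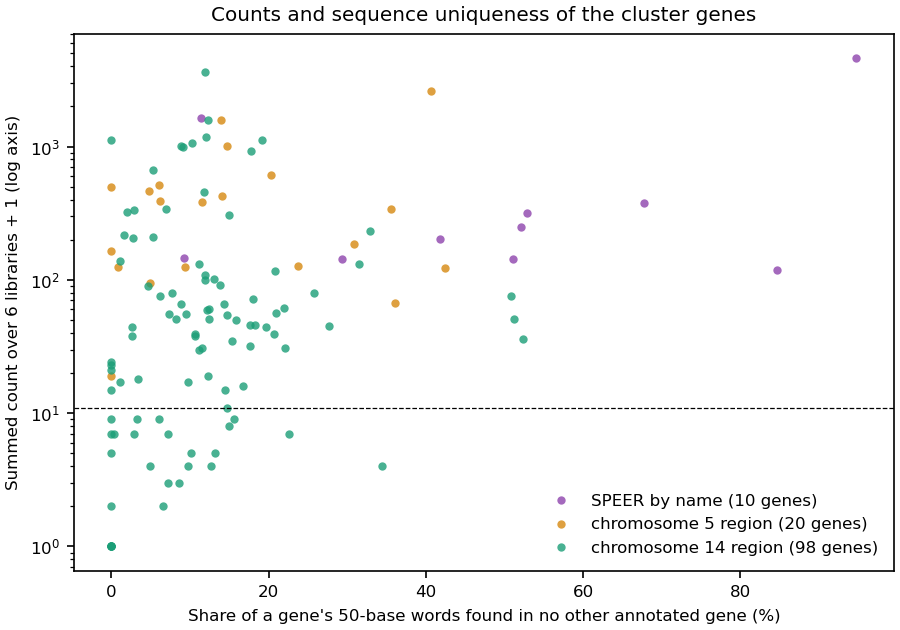
Summed count over the 6 libraries plus 1 (log axis) against the share of 50-base transcript words unique to the gene, for the 128 genes that met the name and position conditions; the dashed line marks the minimum summed count of 10. Most genes of both regions lie under 50% unique, and Speer2 lies at 94.8% with 4598 counts.

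Genes with identical coding sequence received very different counts. Gm10413 had 1116 counts and Gm3012, with the same coding sequence, had 20; neither transcript has a unique 50-base word. In all, 8 members had none, with summed counts between 14 and 1116. Gm3182 and Gm7876 also share their coding sequence. Gm3182 had 0, 0 and 0 counts in KO and 17, 2 and 3 in WT libraries, whereas Gm7876 had 6, 78 and 10 counts in KO and 5, 24 and 15 in WT libraries. Summed over the pair the counts were 6, 78 and 10 in KO and 22, 26 and 18 in WT libraries, which overlap. Values of single copies are therefore uncertain throughout. In addition, 28 of all 102 members overlap a gene on the other strand, and the strand setting of the counting was not given in the sources used here.

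The comparison of KO with WT asked whether these genes changed with loss of 1700052I22Rik. No member passed the test. The fitted fold changes lay more often above 0 than below it, with the highest median in the chromosome 5 region. Of the 102 members, 66 had enough counts to be tested: all 10 Speer genes, 19 of 20 in the chromosome 5 region and 37 of 72 in the chromosome 14 region. None of the 66 had an adjusted p under 0.05 in the quasi-likelihood test of edgeR, adjusted by Benjamini-Hochberg over all 19320 tested genes, where 0.00518% (1 gene, the target) did; the members' adjusted p lay between 0.965 and 0.999. At an unadjusted p under 0.05 there were 8 members in edgeR, 7 higher and 1 lower in KO, against 4.63% of all tested genes (2.41% higher, 2.22% lower). DESeq2 gave 4 such members (3.5% of all tested genes) and limma-voom 6 (4.57% of all tested genes), also with none called.

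The fitted log2 fold change, KO over WT, was above 0 for 49 of 66 members, against 49.3% of all tested genes, with a median of 0.25 against -0.0025. By group the median was 0.45 in the chromosome 5 region (16 of 19 above 0), 0.16 in the chromosome 14 region (27 of 37) and 0.10 among the Speer genes (6 of 10). The members share sequence and possibly reads, so they do not count as separate observations. In 4 of the 66 tested members every KO library was above every WT library (4933402N22Rik, 4930572O03Rik, Speer4f1 and Gm9758) and in none the reverse, against 4.69% and 4.63% of all tested genes in those directions and 9.32% in either. Among the 36 untested members, which have few counts, 7 were higher in every KO library and 1, Gm3182, lower. The share among other untested genes was not computed, so these counts have no background and are not read as a difference. The 95% interval of the fold change lay within 2-fold either way for 30 of the 66.

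**Figure D3:**
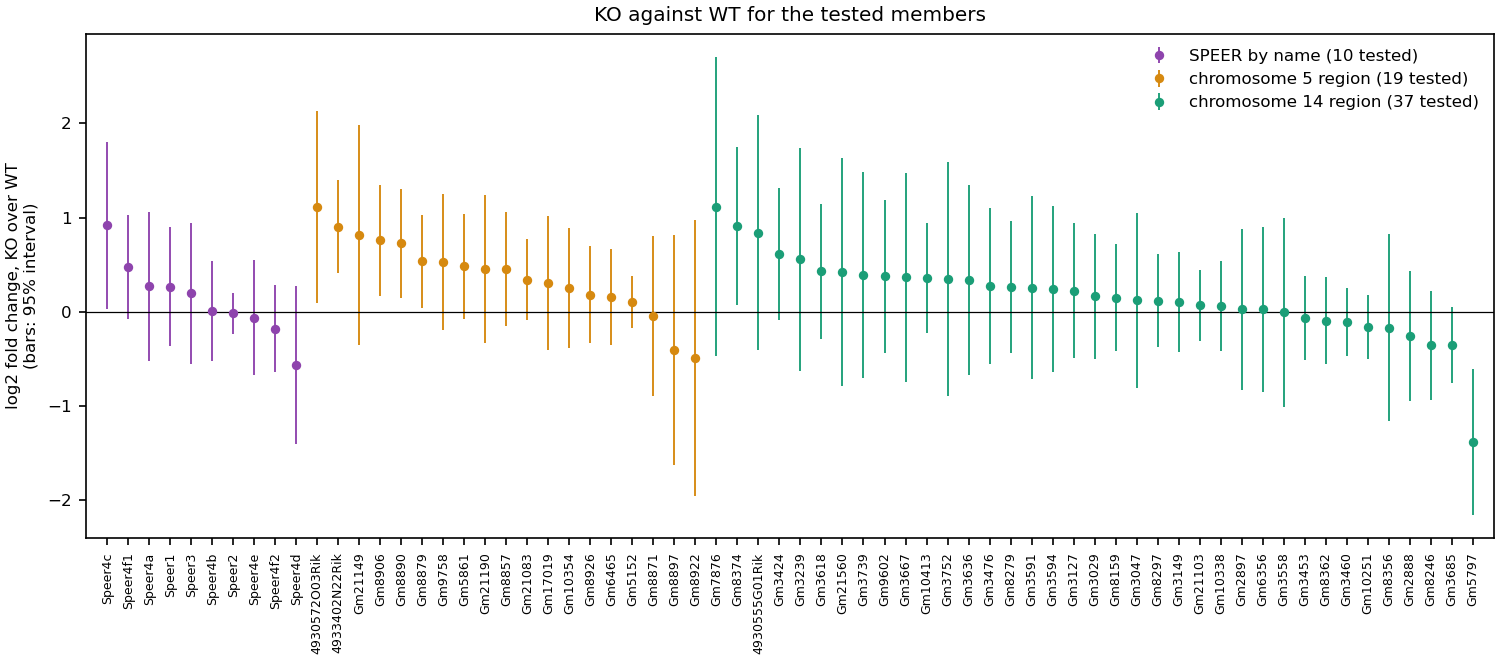
Log2 fold change of KO over WT for the 66 tested members, ordered within each group; points are edgeR estimates and bars their 95% intervals. In the chromosome 5 region 16 of 19 points lie above 0, and Gm5797 at -1.38 is the lowest of all.

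The chromosome 5 region was the one group whose summed level did not overlap between genotypes, at 107, 97.98 and 109.8 CPM in KO against 84.5, 62.6 and 89.7 CPM in WT libraries. The exact two-sided permutation test of 3 against 3 libraries cannot give a p under 0.1. Within the region the difference between the mean levels was largest for 4933402N22Rik, at 8.92 CPM. Its level was 18.5, 16.1 and 23.0 CPM in KO and 10.5, 6.02 and 14.3 CPM in WT libraries. Every KO library was above every WT library. The log2 fold change was 0.90 (SE 0.23, 95% interval 0.41 to 1.39) with an unadjusted p of 0.0015 and an adjusted p of 0.965 in edgeR.

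Other members of that region with a small unadjusted p overlapped between the groups or were rare. Gm8906 had 18.3, 6.87 and 10.2 CPM in KO and 5.99, 6.46 and 8.48 CPM in WT libraries, with KO 1 far above the rest and a log2 fold change of 0.76 (SE 0.27). Gm8890 had 3.94, 3.23 and 6.40 CPM in KO and 2.77, 2.12 and 3.30 CPM in WT libraries, with a log2 fold change of 0.73 (SE 0.27). In both genes the groups overlapped in part. 4930572O03Rik had 0.844, 1.08 and 0.617 CPM in KO and 0.610, 0.223 and 0.330 CPM in WT libraries, without overlap, and a log2 fold change of 1.11 (SE 0.48). Gm8879 had a log2 fold change of 0.54 (SE 0.23), with means of 4.69 ± 1.22 CPM in KO and 3.23 ± 0.434 CPM in WT libraries (SD, n = 3 each). These 5 were the members of the region with p under 0.05 before adjustment.

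The most abundant gene of the region differed little. Gm5152 had 24.1, 26.3 and 25.6 CPM in KO and 25.2, 18.8 and 26.5 CPM in WT libraries. Only WT 2 lay apart, below the others, and the log2 fold change was 0.11 (95% interval -0.17 to 0.38). WT 2 was the lowest of the 6 libraries in 12 of the 19 tested genes of the region, with a median deviation of -0.62 (log2) from each gene's mean. Without WT 2 the median log2 fold change of the region was 0.28, with 13 of 19 above 0 and 1 member under p 0.05 in place of 5, while 2.94% of all genes tested in that fit were under 0.05. Without WT 1 and KO 2, the libraries that stood apart, it was 0.43 with 17 of 19 above 0 and 8 members under 0.05, where 8.51% of all tested genes were under 0.05.

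In the chromosome 14 region no direction held. The summed level was 149.7, 232 and 143 CPM in KO and 200.05, 182 and 141 CPM in WT libraries, with KO 2 the highest and the groups overlapping. Gm21103 was also highest in KO 2, with 28.3, 46.6 and 29.3 CPM in KO and 35.8, 37.5 and 26.0 CPM in WT libraries and a log2 fold change of 0.070 (95% interval -0.31 to 0.45). Gm10413 had 11.0, 17.9 and 6.23 CPM in KO and 10.2, 9.70 and 7.49 CPM in WT libraries, with both the highest and the lowest value in KO. Its log2 fold change was 0.36 (SE 0.27).

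Gm5797 was the member with the lowest fold change, and the only one lower in KO at an unadjusted p under 0.05. Its level was 5.85, 5.50 and 4.21 CPM in KO and 22.4, 13.0 and 5.12 CPM in WT libraries. The 3 KO libraries were alike, whereas WT 1 and WT 2 were high and WT 3 lay among the KO values. The log2 fold change was -1.38 (SE 0.36, 95% interval -2.15 to -0.60), with p 0.0018 before and 0.965 after adjustment in edgeR. Without WT 3 it was -1.77 and passed the test, with an adjusted p of 0.0140 in edgeR; leaving out a library that lies near the other group widens the difference by construction. Gm5797 is 99.8% identical in coding sequence to Gm3476 and has 8.86% unique 50-base words.

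The remaining named genes of this region lay nearer to 0 or had few counts. All were named by rank except Gm8374, which was named after its value was seen. Gm8374 had 1.35, 2.38 and 1.07 CPM in KO and 0.888, 0.557 and 1.10 CPM in WT libraries, a log2 fold change of 0.91 (SE 0.39), and was the other member of the region with p under 0.05. Gm3685 (-0.36, SE 0.19), Gm8246 (-0.35, SE 0.27) and Gm10251 (-0.17, SE 0.16) were the next lowest by p. Gm3460, Gm3453 and Gm10338 had log2 fold changes of -0.11, -0.063 and 0.058, and Gm3618 had 0.43 (SE 0.34).

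The named Speer genes did not move together. Speer2 had 47.4, 39.1 and 41.1 CPM in KO and 45.4, 38.8 and 45.0 CPM in WT libraries, with a log2 fold change of -0.017 and a 95% interval from -0.24 to 0.20. It is the member with the most distinct sequence and the narrowest interval. Speer1 had 11.3, 10.6 and 27.9 CPM in KO and 16.6, 9.97 and 14.8 CPM in WT libraries. KO 3 alone was high, and the log2 fold change of 0.27 became -0.34 without it.

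Speer4c had 0.900, 3.01 and 1.46 CPM in KO and 1.05, 0.780 and 0.991 CPM in WT libraries, with KO 2 the highest and KO 1 among the WT values. Its log2 fold change was 0.92 (SE 0.41) with an unadjusted p of 0.0429 in edgeR. Speer4f1 was higher in every KO library, at 2.67 ± 0.267 CPM in KO and 1.92 ± 0.474 CPM in WT (SD, n = 3 each), with a log2 fold change of 0.47 (SE 0.26) and an unadjusted p of 0.0880 in edgeR. Its near copy Speer4f2, 98.8% identical in coding sequence, had a log2 fold change of -0.18 (SE 0.22). Speer4d, at -0.56 (SE 0.39), was the lowest of the family, and Speer3, Speer4a, Speer4b and Speer4e lay between -0.061 and 0.27.

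Single libraries moved many members at once. KO 2 was the highest library in 30 of the 66 tested members (45.5%, against 18.4% of all tested genes), and in 20 of 37 in the chromosome 14 region (54.1%). The median deviation from the gene's mean in KO 2 was 0.47 (log2) in the chromosome 14 region and 0.33 among the Speer genes, and WT 1 had the next highest medians, 0.22 and 0.18. In the chromosome 5 region the 3 KO libraries had medians of 0.20, 0.13 and 0.23, all above the WT medians of -0.085, -0.62 and -0.048. Without KO 2 the median log2 fold change of the chromosome 14 region was -0.18, with 15 of 39 tested members above 0, and without both KO 2 and WT 1 it was -0.050. The part of the lower Leydig cell and epididymis marker sums of KO 2 and WT 1 in these shifts was not tested. Nor was the part of the low elongating spermatid sum of KO 2.

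**Figure D4:**
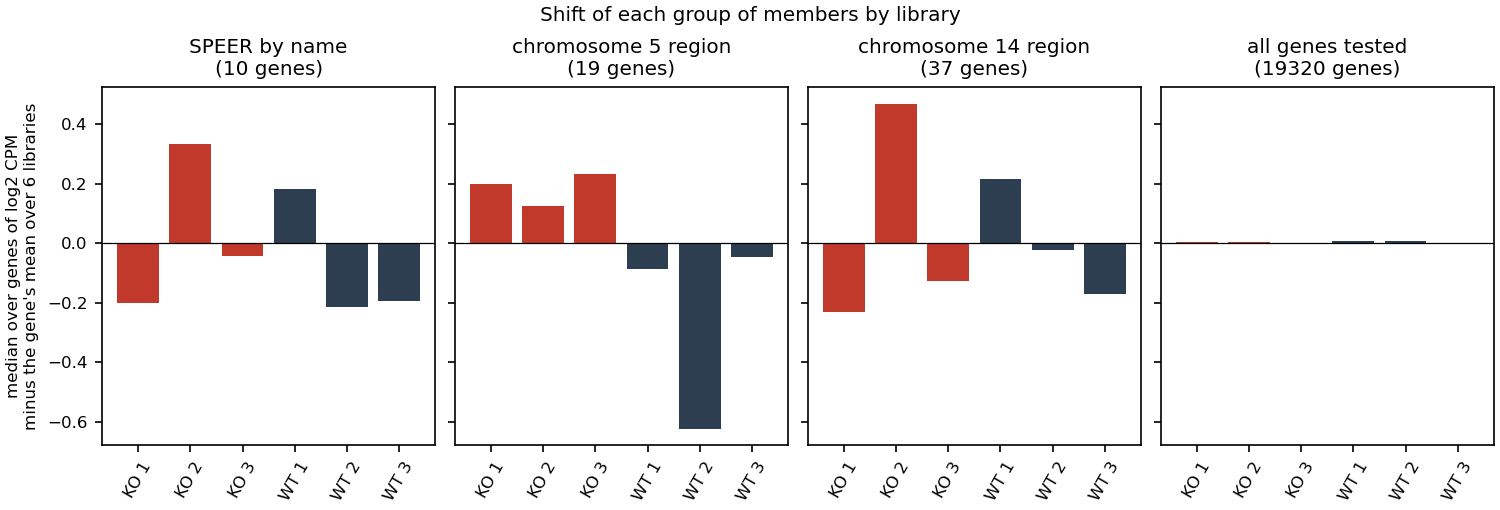
Median over genes of each library's log2 CPM minus the gene's mean over the 6 libraries, for the 3 groups of members and for all 19320 tested genes; KO libraries are left of WT libraries. KO 2 has the highest bar in the chromosome 14 panel (0.47) and WT 2 the lowest in the chromosome 5 panel (-0.62).

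The spread between libraries was wide for these genes at every level of expression. The biological coefficient of variation, which edgeR estimates as the relative spread beyond counting error, had a median of 0.228 over the 66 tested members and 0.125 over all tested genes. Among genes with at least 10 CPM the medians were 0.172 for 9 members and 0.0920 for 9902 genes, and at 5 to 10 CPM they were 0.176 for 7 members and 0.135 for 2309 genes. Gm7876 and Gm8922 were the most variable. Gm7876 had 0.338, 4.43 and 0.561 CPM in KO and 0.277, 1.34 and 0.826 CPM in WT libraries. Gm8922 had 0.169, 2.78 and 0.842 CPM in KO and 0.333, 2.28 and 2.70 CPM in WT libraries. The groups overlapped in both. The ratio of the highest to the lowest library was 16.0 for Gm7876 and 16.5 for Gm8922, against 1.22 for Speer2 and 1.41 for Gm5152.

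**Figure D5:**
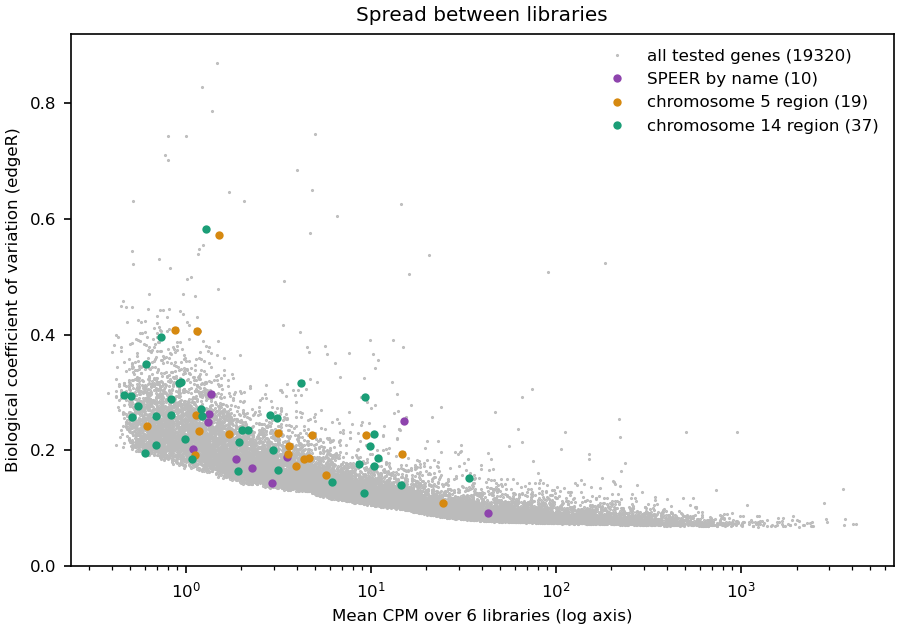
Biological coefficient of variation against mean CPM (log axis) for the tested members, coloured by group, over all 19320 tested genes in grey. Members lie mostly above the middle of the grey cloud at the same level, and Speer2, the most abundant member, has the lowest value among them.

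The Dlg genes and a list fixed as other multicopy spermatid families were set beside the members. Of the 5 Dlg genes, all were tested, none passed the test or had p under 0.05, and the median log2 fold change was 0.069. Of 45 genes listed as other multicopy families (Slx, Ssty, Xlr, Mage, Cypt and others), 41 had a count and 30 were tested. None passed the test, and the median was 0.14. Of the 30, 3 were higher and 1 lower in KO at an unadjusted p under 0.05 in edgeR. Over all tested genes 2.41% were higher and 2.22% lower at that p. Of the 45, 13 had at least 90% unique 50-base words, so the list does not hold near-identical copies alone. Sly, Ssty2, Srsy and Rhox3a were listed at 0 in all libraries, with a median of 17.4% unique 50-base words. Spermatogonial markers summed to 91.3 to 96.7 CPM in KO and 102 to 106 CPM in WT libraries, without overlap, and round spermatid markers to 1333 to 1406 CPM in KO and 1204 to 1410 CPM in WT libraries. All 7 macrophage markers had a log2 fold change below 0 (median -0.37), with sums of 51.5 to 65.5 CPM in KO and 60.2 to 89.7 CPM in WT libraries. Of these, 4 had an unadjusted p under 0.05 in edgeR, against 4.63% of all tested genes, and none was called. All 7 Leydig cell markers were also below 0 (median -0.30, 1 under 0.05, none called), with sums of 295 to 684 CPM in KO and 263 to 921 CPM in WT libraries. Sertoli cell markers were below 0 in 5 of 7 (median -0.15), and round spermatid and spermatocyte markers were above 0 in 6 of 8 each. The part of these marker differences in the members' fold changes was not tested.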

How the data were processed

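TRIzol extraction and the VAHTS mRNA-seq v2 kit are named per the labels' protocols. The submitters' processing notes list the aligner HISAT2 2.0.0 and the build mm10. The deposited table holds read counts per gene as whole numbers, not normalised by the authors, with 1 column per library. The counting tool, the annotation release, the strand setting and the treatment of reads that fit several genes were not given in the sources used here. Columns were matched to samples by genotype and number, and 0 columns were left unmatched.

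The counts were tested, KO against WT, with glmQLFit and glmQLFTest in edgeR 4.0.16 (R 4.3.3) after filterByExpr and TMM scaling, with Benjamini-Hochberg adjustment over 19320 genes and a threshold of 0.05. The fit was tested on simulated data. CPM values are TMM-scaled, errors are SDs over 3 libraries, and levels per kilobase use the deposited gene length. Alternatives were other scalings, other low-count filters, DESeq2 1.42.0, limma-voom (limma 3.58.1), the replicate number as a block, and libraries left out. Same-numbered KO and WT libraries had correlations of their deviations of -0.17, -0.029 and 0.11, so the numbers were not taken to pair libraries.

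Unique words were counted over all GENCODE M21 transcripts without regard to strand, with words shared between transcripts of 1 gene counted as unique. Coding identities come from global alignments with free end gaps in Biopython 1.88 (match 2, mismatch -2, gap -6 and -1) over at least 50% of the shorter sequence. They are the share of aligned positions with the same base, without positions opposite a gap. All 128 genes had the same coordinates in GENCODE M21.

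The members, lists and alternatives were chosen with earlier results of these data known. Genes were named by rule: tested Speer genes, the 8 members of each region with the highest CPM per kilobase, the 5 with the smallest p in each direction, and the 3 nearest the count minimum on either side. Other members were named after their values were seen.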

Additional observations from a re-analysis of the deposited data

How the results depend on the processing

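None of the members passed edgeR's test under the 3 other scalings, the filter on a mean of 5 CPM or more, or the replicate block, and none passed in DESeq2 or limma-voom. With no low-count filter 4 members passed (4933402N22Rik at 0.90, Gm8906 at 0.76, Gm5797 at -1.38, and Gm3182), as did 50 genes in all in place of 1, with 19 of 102 members under an unadjusted p of 0.05 (4.98% of all genes in that fit) in place of 8; the cause was not tested. Members under 0.05 numbered 3 of 16 at a mean of at least 5 CPM (4.72% of all genes), 4 of 66 with DESeq2 (3.5%) and 15 of 64 without WT 1 and KO 2 together (8.51%); genes called were 2 with DESeq2 and 9 without WT 1 and KO 2. Leaving out 1 library at a time gave 1 to 3 genes called, 0 to 1 members called (Gm5797, without WT 3), 4 to 14 members under 0.05 (5.48% to 20.6% of those tested, beside 2.48% to 7.34% of all genes), and a median log2 fold change of 0.020 (without KO 2) to 0.32. For the groups of members, looked at after the data were seen, that median was -0.011 to 0.36 for Speer genes, -0.18 to 0.26 for chromosome 14 and 0.28 to 0.54 for chromosome 5. At a mean of at least 5 CPM the chromosome 14 median was -0.076 (10 members). The members' share of counts was 0.0328% to 0.0346% over the same omissions.

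Of 30 named members with a fitted fold change, 13 changed sign under at least 1 alternative. With library size alone Speer4b was at -0.00097. Without WT 1 and KO 2 Speer2 was at 0.082 and Gm21103 at -0.13. Leaving out 1 library gave Speer2 -0.10 to 0.044, Speer1 -0.34 to 0.51, Speer4a -0.055 to 0.62, Speer4b -0.15 to 0.31, Speer4e -0.21 to 0.15, Gm5152 -0.032 to 0.20, Gm6465 -0.096 to 0.38, Gm8926 -0.066 to 0.38, Gm21103 -0.19 to 0.20, Gm10338 -0.21 to 0.23, Gm10413 -0.076 to 0.66, Gm3453 -0.38 to 0.082 and Gm3460 -0.31 to 0.052.

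With the replicate block 0 members passed and 8 had p under 0.05, with a median of 0.21; not every library correlated best with its own number. Depth limits the 36 untested members, whose summed counts reached at most 78.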

Other observations

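Non-coding Speer genes were counted beside the members. The pseudogene Speer6-ps1 had 0.563, 0.454 and 0.393 CPM in KO and 0.555, 0.947 and 1.10 CPM in WT libraries, with a log2 fold change of -0.88 and no call in edgeR. Speer5-ps1 and Speer9-ps1 had log2 fold changes of 0.40 and 0.26, also with no call. Of the other protein-coding genes between the chromosome 5 copies, Cacna2d1, a calcium channel subunit gene, had a log2 fold change of 0.015, Sema3e, a guidance factor gene, 0.23, and Pclo, a presynaptic scaffold gene, -0.54, and none was called.

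Of the 30 tested genes listed as other multicopy families, 4 had an unadjusted p under 0.05 in edgeR, against 4.63% of all tested genes. Cypt2, of a family of cysteine-rich spermatid proteins, was 1 of them. It had 52.6, 57.7 and 71.4 CPM in KO and 52.6, 48.5 and 47.7 CPM in WT libraries, with KO 1 barely above WT 1. Actrt1, an actin-related gene of the sperm head, Xlr3a and the lower Magea6 were the others. The groups did not overlap in any of the 4, which were picked by their p, and none was called. Over all tested genes, whatever their p, the groups did not overlap in 9.32%.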
